A study of Homo sapiens with 18 samples.

Results

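BDH1, BDH2, OXCT1 and AACS encode enzymes that interconvert or use ketone bodies, and they stand next to ACAT1 in the same pathway. These 4 genes were chosen by name from the 39496 genes of the deposited table, under a rule that uses no measured value but with earlier results of these data known, and all 4 passed the filter on low counts that left 20144 genes. The data were 18 RNA-seq libraries of 2 bladder cancer cell lines, UM-UC-3 and T24, which are established human transitional cell carcinoma lines. Each line was transfected with a control siRNA (siNC, labelled wild type) or with 1 of 2 siRNAs against ACAT1 (siACAT1-1 or siACAT1-2, labelled ACAT1 knockdown), and each of the 6 groups had 3 libraries. The labels call the libraries of a group biological replicates without saying whether they came from separate cultures, so p values measure the spread between these libraries. Time after transfection is not given in the sources used here, T24 was grown in RPMI medium and UM-UC-3 in MEM, and every group is a single cell line.

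Ketone bodies are acetoacetate and 3-hydroxybutyrate. The liver makes them from acetyl-CoA of fatty acid oxidation and other tissues take them up as fuel. BDH1 is the mitochondrial dehydrogenase that interconverts acetoacetate and 3-hydroxybutyrate, and BDH2 is a cytosolic dehydrogenase that also accepts 3-hydroxybutyrate. OXCT1 (SCOT) is the mitochondrial transferase that moves CoA from succinyl-CoA to acetoacetate and so commits it to use. ACAT1 then splits the acetoacetyl-CoA to acetyl-CoA, and in the reverse direction it makes acetoacetyl-CoA. AACS is the cytosolic synthetase that joins acetoacetate to CoA for the synthesis of cholesterol and fatty acids.

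In the GRCh38 coordinates of the deposited table, BDH1 lies on chromosome 3 from 197509783 to 197573323 on the minus strand, with 9114 exon bases. BDH2 lies on chromosome 4 from 103079435 to 103099883 on the minus strand, with 3383 exon bases. OXCT1 lies on chromosome 5 from 41730065 to 41870519 on the minus strand, with 4194 exon bases. AACS lies on chromosome 12 from 125065379 to 125143333 on the plus strand, and its 16094 exon bases, merged over all transcripts, enter the length by which its RPKM (reads per kilobase of exon, scaled to the counted reads of the library) is divided. BDH2 shared 397 exon bases (11.7% of its length) with SLC9B2 on the same strand, and OXCT1 shared 229 (5.46%) with its antisense gene OXCT1-AS1. How reads in these overlaps were assigned is not given in the sources used here, so they may have been counted for either gene, both or neither.

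The promoters of the members were read after a pattern was seen in BDH1, BDH2 and OXCT1. Each was higher with siACAT1-2 than with siACAT1-1 in every pair of libraries with the same replicate number (below). How many of all genes had such pairs was not counted. In the fit with the replicate number as a block, 20.6% of all genes differed between the siRNAs at an adjusted p under 0.05. The stretches before the first exon base of BDH2 and OXCT1 are printed here from the RefSeq promoter table (GRCh38.p14), 5′ to 3′ on the minus strand, with motif matches in capitals. BDH2 is at chr4:103099884-103100084 and OXCT1 at chr5:41870520-41870675.
BDH2: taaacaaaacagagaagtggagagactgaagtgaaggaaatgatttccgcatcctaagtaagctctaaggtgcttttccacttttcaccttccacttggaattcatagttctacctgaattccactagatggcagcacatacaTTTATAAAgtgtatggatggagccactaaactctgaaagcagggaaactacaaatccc
OXCT1: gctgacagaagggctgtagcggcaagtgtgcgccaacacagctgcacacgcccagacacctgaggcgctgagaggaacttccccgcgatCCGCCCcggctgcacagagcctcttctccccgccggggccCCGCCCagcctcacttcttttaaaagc
The BDH2 stretch had 40.3% GC, and its capitals mark a TATA box (TATAAA) on each strand, the matches overlapping by 4 letters. The OXCT1 stretch had 65.4% GC, and its capitals mark GC boxes (GGGCGG or its reverse complement CCGCCC). In the 6 windows of 300 bases that the table lists for the members, each searched on both strands, the GC box was found in 1 window of BDH1, 1 of OXCT1 and the 1 of AACS, with 3 matches in each. The TATA box was found in the BDH2 window alone. The E-box CACGTG and the CCAAT box were in none of the 6 windows. Of all 35116 promoter windows of this length, 45.0% held the GC box, 11.5% the TATA box, 34.6% the CCAAT box and 7.3% the E-box, so these matches are descriptions of the windows.

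Each library had between 25163490 and 34417230 counted reads. ACAT1, the target of the siRNAs, was at 44.1 to 47.4 RPKM in the siNC libraries of UM-UC-3 and at 14.6 to 17.1 in those of T24, and at 0.671 to 3.59 RPKM in the 12 knockdown libraries. Its log2 fold change against siNC was -3.91 and -4.45 in UM-UC-3 and -3.64 and -4.34 in T24, for siACAT1-1 and siACAT1-2 in turn. Summed over 10 urothelial markers, the level was 0.892 to 1.49 RPKM in UM-UC-3 and 5.41 to 8.00 in T24. All 10 were under 1 RPKM in UM-UC-3, and 8 of 10 were in T24, all but FOXA1 and PPARG. Hepatocyte, leukocyte and endothelial markers summed to at most 0.188 RPKM in any library. In bulk RNA, fewer cells of a type and less RNA per cell cannot be told apart. Within a cell line, libraries with the same replicate number deviated from their group means together (processing section), so each call that changes with the replicate number as a block is given both ways.

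OXCT1 was the most abundant of the 4 enzymes per length in all 18 libraries, between 7.41 and 14.0 RPKM. BDH1 was low per length in both cell lines, between 0.549 and 1.19 RPKM. BDH2 ranged from 0.377 to 3.85 RPKM and AACS from 0.953 to 3.38 RPKM, and for both genes every T24 library was above every UM-UC-3 library. How many of all genes separate by line or by group in such a way was not counted, here or below. In the siNC libraries of UM-UC-3, the RPKM of OXCT1 was 12.6 ± 4.01 times that of BDH1 (SD, n = 3) and 11.1 ± 0.818 times that of AACS. In the siNC libraries of T24 the ratios were 9.86 ± 0.820 for BDH1 and 3.34 ± 0.411 for AACS. RPKM of AACS and BDH1 is divided by long merged exon lengths (16094 and 9114 bases), which lowers their levels beside OXCT1 and BDH2. In reads, BDH1 had 211 to 294 and BDH2 45 to 92 in the siNC libraries of UM-UC-3. In those of T24, BDH1 had 207 to 373 and BDH2 215 to 309.

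**Figure D1:**
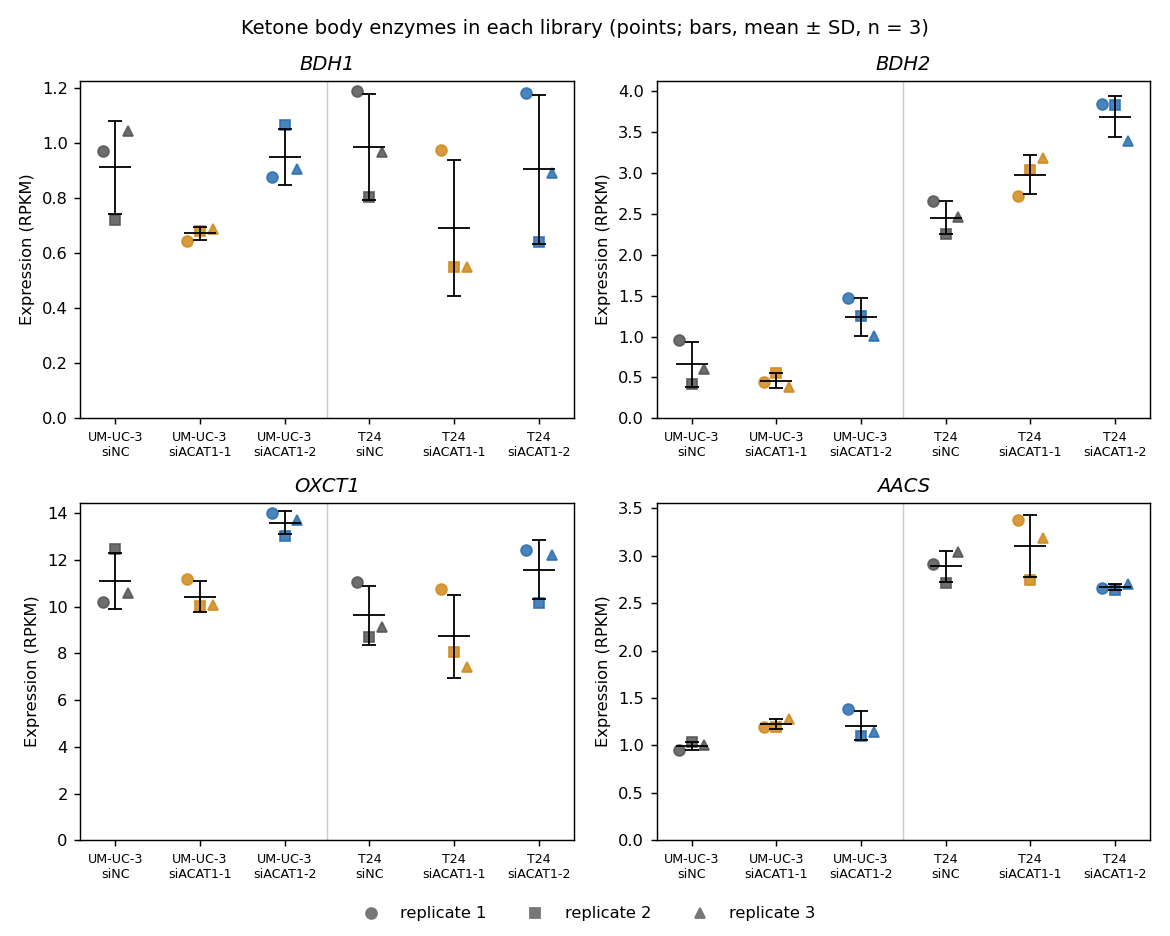
RPKM of BDH1, BDH2, OXCT1 and AACS in each of the 18 libraries (points, marked by replicate number), by group on the horizontal axis, with mean and SD of 3 libraries as bars. BDH2 and AACS sit higher in T24 than in UM-UC-3, and BDH2 is highest with siACAT1-2 in each cell line.

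BDH1, the mitochondrial dehydrogenase, was at 0.972, 0.721 and 1.04 RPKM in the siNC libraries of UM-UC-3 (replicates 1 to 3, as in all lists that follow). With siACAT1-1 it was at 0.645, 0.683 and 0.689 RPKM, and with siACAT1-2 at 0.876, 1.07 and 0.908 RPKM. The siACAT1-1 libraries of UM-UC-3 were thus all below the other 6, while siNC and siACAT1-2 overlapped. In T24, BDH1 was at 1.19, 0.806 and 0.967 RPKM with siNC. It was at 0.977, 0.549 and 0.549 RPKM with siACAT1-1 and at 1.18, 0.643 and 0.891 RPKM with siACAT1-2. Replicate 1 was the highest in all 3 groups of T24 and the groups overlapped. Ordered by mean RPKM, the 6 groups of BDH1 ran from T24 siNC (0.987 ± 0.192) to UM-UC-3 siACAT1-1 (0.672 ± 0.0236), and every group overlapped its neighbour.

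BDH2, the cytosolic dehydrogenase, showed the widest range of the 4 as a ratio of its highest to its lowest RPKM. In UM-UC-3 it was at 0.963, 0.415 and 0.603 RPKM with siNC, which rests on 92, 45 and 63 reads. With siACAT1-1 it was at 0.440, 0.559 and 0.377 RPKM and with siACAT1-2 at 1.47, 1.25 and 1.01 RPKM. Every siACAT1-2 library of UM-UC-3 was above the siNC and siACAT1-1 libraries, which overlapped each other. In T24, BDH2 was at 2.65, 2.25 and 2.46 RPKM with siNC. It was at 2.72, 3.04 and 3.18 RPKM with siACAT1-1 and at 3.85, 3.83 and 3.40 RPKM with siACAT1-2. The 3 groups of T24 did not overlap and stood in the order siACAT1-2, siACAT1-1, siNC. Between siACAT1-1 and siNC the gap was narrow (2.72 against 2.65 RPKM), and the share of all genes that separate like this was not counted. Over all 6 groups, UM-UC-3 siNC and siACAT1-1 were the only neighbours in the order of means whose libraries overlapped.

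OXCT1, the transferase that commits acetoacetate to use, was at 10.2, 12.5 and 10.6 RPKM in UM-UC-3 with siNC. It was at 11.2, 10.05 and 10.05 RPKM with siACAT1-1 and at 14.0, 13.0 and 13.7 RPKM with siACAT1-2. The siACAT1-2 libraries of UM-UC-3 were above all other libraries of the series. In T24 it was at 11.1, 8.71 and 9.14 RPKM with siNC. It was at 10.8, 8.06 and 7.41 RPKM with siACAT1-1 and at 12.4, 10.1 and 12.2 RPKM with siACAT1-2. The T24 groups overlapped, and so did every pair of neighbours in the order of the 6 means apart from the top 2, UM-UC-3 siACAT1-2 (13.6 ± 0.492) and T24 siACAT1-2 (11.6 ± 1.26). ACAT1 itself was 4.18 ± 0.451 times as abundant as OXCT1 per length in the siNC libraries of UM-UC-3 and 1.69 ± 0.179 times in those of T24. With siACAT1-1 the ratio of ACAT1 to OXCT1 was 0.295 ± 0.0830 in UM-UC-3 and 0.152 ± 0.0334 in T24, and with siACAT1-2 it was 0.160 ± 0.0465 and 0.0696 ± 0.0184.

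AACS, the cytosolic synthetase, was lower in UM-UC-3 than in T24 in every group. In UM-UC-3 it was at 0.953, 1.03 and 1.00 RPKM with siNC. It was at 1.19, 1.19 and 1.28 RPKM with siACAT1-1 and at 1.39, 1.10 and 1.15 RPKM with siACAT1-2. All 6 knockdown libraries of UM-UC-3 were above the 3 siNC libraries. In T24 it was at 2.92, 2.71 and 3.04 RPKM with siNC. It was at 3.38, 2.74 and 3.19 RPKM with siACAT1-1 and at 2.66, 2.64 and 2.70 RPKM with siACAT1-2. There the siACAT1-2 libraries were the lowest, just below the lowest siNC library, and siACAT1-1 overlapped siNC.

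To ask how enzymes next to ACAT1 stand once ACAT1 is lowered, knockdown and siNC libraries of the same line were compared first, for each siRNA, by the quasi-likelihood test of edgeR. Genes whose Benjamini-Hochberg adjusted p, over all 20144 tested, was under 0.05 are referred to as called. None of the 4 enzymes was called in any of these 4 comparisons. In UM-UC-3, siACAT1-1 gave calls for 0.00993% of all genes and siACAT1-2 for 0.0546%. In T24 the shares were 0.124% and 0.268%. DESeq2 and limma-voom also called none of the 4, and at an unadjusted p under 0.05 edgeR gave 2 of the 16 results, both of them BDH2 with siACAT1-2. The share of all genes with such a p was 5.34% and 3.86% in UM-UC-3, and 11.5% and 8.44% in T24, for siACAT1-1 and siACAT1-2 in turn. The pairs of comparisons within a cell line share their siNC libraries.

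The BDH2 values with siACAT1-2 were 0.88 on the log2 scale in UM-UC-3 (SE 0.27, 1.83-fold, 95% interval 1.24 to 2.72, adjusted p = 0.804) and 0.60 in T24 (SE 0.26, 1.52-fold, 95% interval 1.05 to 2.21, adjusted p = 0.504). With the replicate number as a block, BDH2 was called in UM-UC-3 (0.89, SE 0.22, adjusted p = 0.0471, where 1.36% of all genes were called), and in T24 it stayed above the threshold (0.61, SE 0.19, adjusted p = 0.0548, 8.48% called). That call in UM-UC-3 rests on 45 to 142 reads a library, and it was made in 8 of the 18 blocked fits that left out 1 library. Compared within a replicate number, BDH2 was higher with siACAT1-2 than with siNC in 6 of 6 pairs, by 0.49 to 1.51 on the log2 scale. How many of all genes had such pairs was not counted. Beside the BDH2 values of UM-UC-3, the sum of 4 fibroblast markers was 2.39 to 2.90 RPKM with siACAT1-2, 1.35 to 2.02 with siNC and 1.16 to 1.43 with siACAT1-1. DCN, LUM and PDGFRA were at most 0.102 RPKM there and COL3A1 made up the rest, the sum in T24 was 0.322 to 0.774 RPKM, and the part of such cells or genes in the BDH2 values was not tested. With siACAT1-1 the log2 fold change of BDH2 was -0.52 in UM-UC-3 (SE 0.28) and 0.28 in T24 (SE 0.26), and neither was called with or without the block (blocked adjusted p = 0.291 and 0.349, where 3.06% of all genes were called with siACAT1-1 in UM-UC-3).

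BDH1 with siACAT1-1 was at -0.44 on the log2 scale in UM-UC-3 (SE 0.29, adjusted p = 0.961) and at -0.50 in T24 (SE 0.29, 0.705-fold, adjusted p = 0.520). With the block it was called in T24 (-0.53, SE 0.17, 0.693-fold, 95% interval 0.543 to 0.884, adjusted p = 0.0402, where 13.9% of all genes were called), in 12 of the 18 blocked fits without 1 library. It was lower than siNC of the same number in 6 of 6 pairs, by 0.055 to 0.76 on the log2 scale, and the share of all genes with such pairs was not counted. With siACAT1-2 the values of BDH1 were 0.023 in UM-UC-3 (95% interval -0.58 to 0.62) and -0.099 in T24 (-0.70 to 0.50).

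OXCT1 had log2 fold changes of -0.092 and -0.13 with siACAT1-1 and of 0.25 and 0.28 with siACAT1-2, in UM-UC-3 and T24 in turn, each with an SE of 0.18. AACS had log2 fold changes of 0.30 and 0.24 in UM-UC-3, with siACAT1-1 and siACAT1-2, and of 0.12 and -0.095 in T24, each with an SE of 0.15. None of these 8 values was called with or without the block. The siNC and knockdown libraries of AACS in UM-UC-3 did not overlap, but the adjusted p were 0.946 for siACAT1-1 and 1 for siACAT1-2.

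Averaged over both siRNAs and both lines, the log2 fold change with knockdown was -0.25 for BDH1 (SE 0.17), 0.31 for BDH2 (SE 0.16), 0.077 for OXCT1 (SE 0.11) and 0.14 for AACS (SE 0.091). None was called (0.223% of all genes were), none had an unadjusted p under 0.05 (10.9% of all genes had), and DESeq2 and limma-voom called none. The 95% intervals of this mean were -0.16 to 0.31 for OXCT1 and -0.053 to 0.33 for AACS. The mean knockdown effect in UM-UC-3 less that in T24 was 0.0058 for OXCT1 (95% interval -0.47 to 0.48), -0.26 for BDH2 (-0.95 to 0.42), 0.094 for BDH1 (-0.64 to 0.83) and 0.26 for AACS (-0.12 to 0.64). No gene of the 20144 was called in this contrast by edgeR, and 517 (2.57%), none of them among the 4, had an unadjusted p under 0.05. DESeq2 and limma-voom called none of the 4, nor did the block, where 0.104% of all genes were called.

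**Figure D2:**
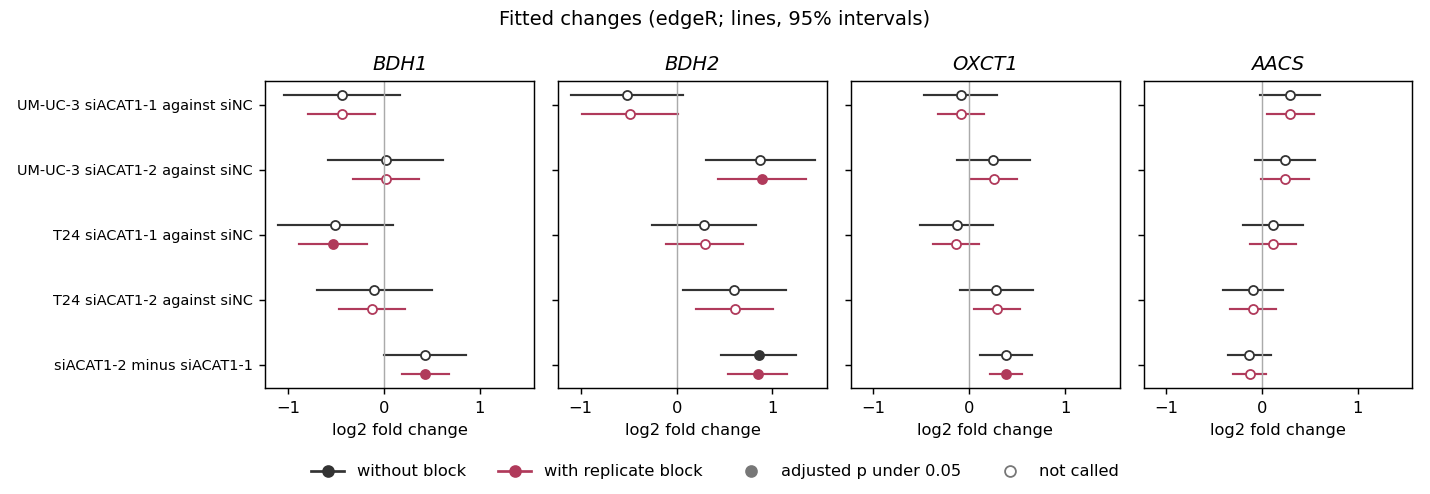
Fitted log2 fold changes (horizontal axis) with 95% intervals for each enzyme in 5 comparisons, without the replicate block (black) and with it (red), where filled points were called at an adjusted p under 0.05. BDH2 lies to the right of 0 in both siACAT1-2 comparisons, and the difference between the siRNAs is above 0 for BDH1, BDH2 and OXCT1.

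The siRNAs against ACAT1 were then compared with each other, as siACAT1-2 minus siACAT1-1 over both lines. The siNC groups carry no weight in this difference, but their libraries were in the fit that gave its SE and p. Without the block, 2.56% of all genes were called, and BDH2 was the 1 called of the 4. BDH2 was 1.81-fold higher with siACAT1-2 (log2 difference 0.86, SE 0.19, 95% interval 1.38 to 2.38-fold, adjusted p = 0.0227). OXCT1 differed by 0.38 on the log2 scale (SE 0.13, 1.30-fold, adjusted p = 0.128) and BDH1 by 0.43 (SE 0.20, 1.35-fold, adjusted p = 0.290). AACS differed by -0.13 (95% interval -0.35 to 0.088, adjusted p = 0.572). ACAT1 itself was 0.62 lower on this scale with siACAT1-2 (adjusted p = 0.0340).

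With the replicate number as a block, 3 of the 4 enzymes were called in this contrast, where 20.6% of all genes were called. BDH2 was at 0.84 (SE 0.15, adjusted p = 5.4e-04), OXCT1 at 0.39 (SE 0.081, adjusted p = 0.00209) and BDH1 at 0.43 (SE 0.12, adjusted p = 0.0133). In 18 of 18 blocked fits without 1 library BDH2 and OXCT1 were called, and BDH1 was called in 16. Without the block, the BDH2 call was made in 12 of 18 such fits, with log2 differences of 0.78 to 0.95 and adjusted p from 0.0138 to 0.0754. It was lost without UM-UC-3 siACAT1-1 replicate 1 or 3, UM-UC-3 siACAT1-2 replicate 1 or 2, T24 siACAT1-1 replicate 1 or T24 siACAT1-2 replicate 1. It was also lost without replicate 3 of all 3 UM-UC-3 groups (0.86, adjusted p = 0.0722).

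Within a replicate number, siACAT1-2 was above siACAT1-1 in 6 of 6 pairs for each of these 3 enzymes. How many of all genes had 6 of 6 pairs in 1 direction was not counted. With the block, 20.6% of all genes were called in this contrast. For OXCT1 the log2 differences of the pairs were 0.34, 0.31 and 0.38 in UM-UC-3 and 0.27, 0.31 and 0.70 in T24. For BDH1 they were 0.45, 0.58 and 0.33 in UM-UC-3 and 0.34, 0.20 and 0.67 in T24. For BDH2 they were larger in UM-UC-3 (1.71, 1.07 and 1.30) than in T24 (0.56, 0.31 and 0.074), and the pairs of the lines did not overlap. For AACS, siACAT1-2 was higher in 1 of 6 pairs (0.23 in UM-UC-3 replicate 1), and the others lay between -0.28 and -0.073.

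**Figure D3:**
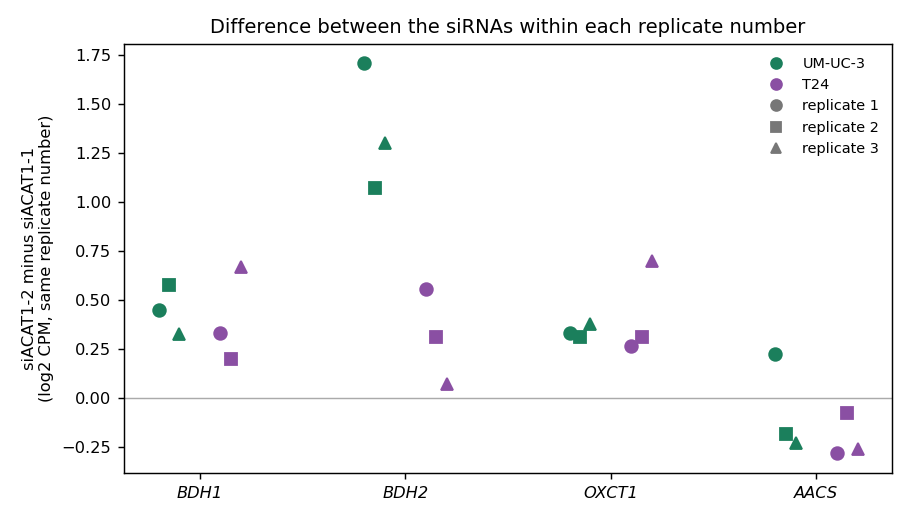
Difference in log2 CPM between siACAT1-2 and siACAT1-1 libraries of the same replicate number (vertical axis), for each enzyme and cell line, 1 point a pair. All 6 points are above 0 for BDH1, BDH2 and OXCT1 and 5 of 6 are below 0 for AACS. Such pairs were not counted over all genes.

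The difference between the lines in this siRNA contrast was tested directly. For BDH2 it was 1.07 on the log2 scale (UM-UC-3 minus T24, SE 0.37, 95% interval 0.29 to 1.86, unadjusted p = 0.0104), which was not called (adjusted p of 1.00 without the block, where 0% of genes were called, and 0.0871 with it, where 1.1% were). Within UM-UC-3, BDH2 was 2.63-fold higher with siACAT1-2 than with siACAT1-1 (95% interval 1.76 to 3.92, adjusted p = 0.103, 0.0496% of all genes called), and with the block this was called (log2 difference 1.38, adjusted p = 0.00142, 8.15% called). Within T24 its log2 difference was 0.32 (SE 0.26) and it was called in neither fit. For OXCT1 the log2 difference was 0.34 in UM-UC-3, called in neither fit. It was 0.42 in T24, which was not called without the block (adjusted p = 0.338, 0.968% called) but was with it (adjusted p = 0.0167, 14.7% called).

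Averaged over the lines, siACAT1-2 against siNC gave 0.74 for BDH2 (SE 0.19, 1.67-fold, adjusted p = 0.0876) and 0.27 for OXCT1 (SE 0.13, adjusted p = 0.484), where 0.581% of all genes were called. With the block both were called (adjusted p = 0.00212 for BDH2 and 0.0327 for OXCT1, 11.3% called). SiACAT1-1 against siNC gave -0.47 for BDH1 (SE 0.20, 0.721-fold, adjusted p = 0.310, 0.427% called), and with the block BDH1 was called (-0.48, adjusted p = 0.0081, 17.6% called). AACS was called with neither siRNA in either fit.

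SLC9B2, which shares exon bases with BDH2 on the same strand, was at 0.731 to 2.26 RPKM. Its log2 fold change with siACAT1-2 was -0.24 in UM-UC-3 and 0.48 in T24, neither of them called, while BDH2 had 0.88 and 0.60. With siACAT1-1 SLC9B2 was at -0.72 in UM-UC-3 (unadjusted p = 0.00143, not called), where BDH2 was at -0.52, and with the block SLC9B2 was called there (-0.73, adjusted p = 0.0265). In T24 it was at 0.23 with siACAT1-1 and was called in neither fit. Between the siRNAs SLC9B2 differed by 0.37 (adjusted p = 0.157), and with the block by 0.36 (adjusted p = 0.0343). The share of the BDH2 reads that fell in the common bases was not tested. OXCT1-AS1 was at 0.0385 to 0.220 RPKM (2 to 13 reads), far below OXCT1. The related gene OXCT2 had 4 to 44 reads a library, and the pseudogenes BDH2P1 and AACSP1 had at most 4. OXCT2P1, a pseudogene of that family, had 0 to 89 reads (at most 2.06 RPKM) and was not called against siNC or between the siRNAs in either fit.

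Between the siNC libraries of the lines, where 44.3% of all genes were called, 2 of the 4 enzymes were called. BDH2 was lower in UM-UC-3 (log2 fold change -1.86 against T24, SE 0.27, 0.276-fold, adjusted p = 3.6e-05), and so was AACS (-1.49, SE 0.15, 0.355-fold, adjusted p = 6.6e-07). OXCT1 (0.24, 95% interval -0.15 to 0.62, adjusted p = 0.306) and BDH1 (-0.083, 95% interval -0.68 to 0.52, adjusted p = 0.836) were not called. The same 2 were called with the block, where 61.7% of all genes were. ACAT1 was higher in UM-UC-3 by 1.55. The cell lines differ in their medium too, and line and medium cannot be told apart.

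**Figure D4:**
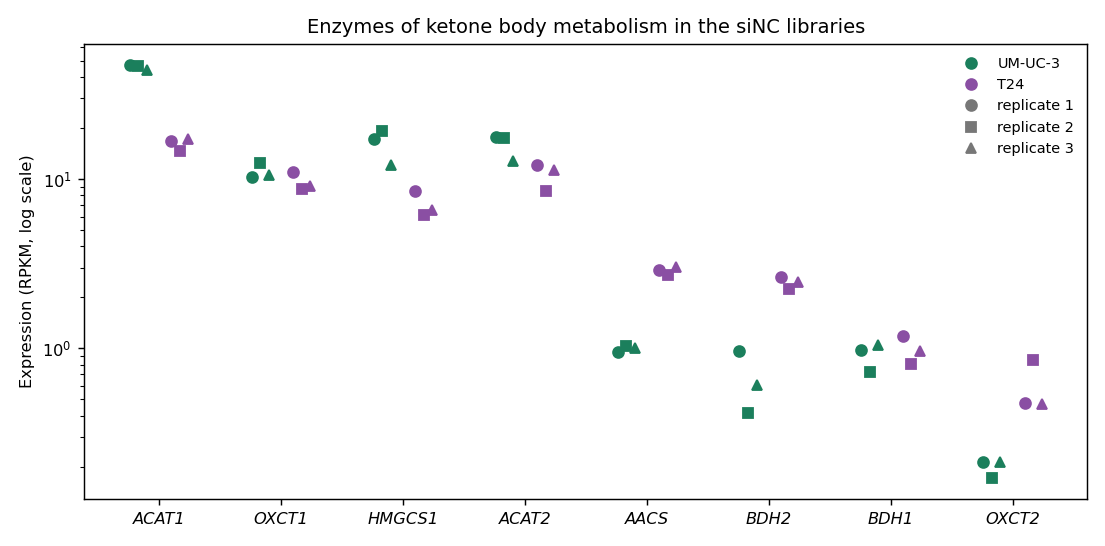
RPKM on a log scale of ACAT1, the 4 enzymes and other enzymes of ketone body metabolism in the 6 siNC libraries (points, green for UM-UC-3, purple for T24). BDH2, AACS and OXCT2 are higher in T24, and ACAT1 and HMGCS1 are higher in UM-UC-3.

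Of 22 other genes listed for ketone body metabolism, 16 besides ACAT1 were tested. ACAT2, the cytosolic thiolase, was at 16.0 ± 2.79 RPKM in UM-UC-3 and 10.6 ± 1.91 in T24 with siNC (SD, n = 3). HMGCS1, the cytosolic HMG-CoA synthase of cholesterol synthesis, was at 16.2 ± 3.64 and 7.07 ± 1.23 RPKM. OXCT2, the second transferase gene, was at 0.199 ± 0.0245 and 0.600 ± 0.221 RPKM. The thiolases and HMGCS1 were thus, like OXCT1, above the dehydrogenases per length in the siNC libraries of both lines.

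None of the 16 was called in the 4 comparisons with siNC or in their mean, and 3 had an unadjusted p under 0.05 in that mean. Their median log2 fold change in the mean was 0.082, and that of all genes was -0.0013. With the block, 5 of the 16 were called in the mean, where 12.4% of all genes were. SLC16A3, a lactate and ketone body carrier of the monocarboxylate family, was higher by 0.41, the transcription factor PPARA by 0.36 and CPT2, of fatty acid entry into mitochondria, by 0.34. ACAT2 was lower by 0.32 and BSG, the partner protein of the carriers, by 0.31. With siACAT1-1 in T24, 5 were called with the block too (13.9% of all genes were). Among them, SLC16A7 (0.57) and PPARA (0.72) were higher than with siNC, and ACAT2 (-0.53) and BSG (-0.91) were lower, as log2 fold changes. In the contrast between the siRNAs, BSG was higher with siACAT1-2 (0.72, adjusted p = 0.00754) and the carrier SLC16A7 was lower (-0.93, adjusted p = 0.00477), and with the block 2 of the 16 were called higher and 3 lower, where 10.4% of all genes were called higher and 10.2% lower. Between the siNC libraries, 22% of all genes were called higher and 22.3% lower in UM-UC-3. Of the 16, HMGCS1 (1.23) and CPT1A (5.004) were called higher there and OXCT2 (-1.53) and SLC16A3 (-4.00) lower, as log2 fold changes against T24. The OXCT2 value rests on 10 to 12 reads a library against 24 to 44, which limits its precision. The transcription factor FOXA2 (0 to 2 reads against 14 to 22) and its fellow regulator PPARGC1A (0 to 4 reads against 8 to 38) were called lower too, at too few reads for a fold. With the block, 4 were called higher and 7 lower there, where 31.6% of all genes were called higher and 30.2% lower.

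The pattern of each enzyme over the 18 libraries, as log2 CPM with the mean of each line subtracted, was compared with that of 11342 or 11343 genes of at least 1 RPKM in each line. Libraries share their line, siRNA and replicate set, so these correlations are descriptions. Among the nearest genes to BDH2 were FAM127A (r = 0.82) and ATP5H (0.79), and the farthest was NUDT4 (-0.82). Nearest to OXCT1 were TMEM65 (0.90), LRRC47 (0.87) and ELOVL5 (0.86), and farthest was IFT20 (-0.90). Nearest to BDH1 were XXbac-B562F10.12 (0.87), EXOG (0.87) and SART1 (0.86), and farthest was PTPN12 (-0.90). Nearest to AACS were GBE1 (0.84), GS1-114I9.3 (0.83) and CTD-2033A16.1 (0.80), and farthest was NME6 (-0.84). Among the enzymes, BDH1 and OXCT1 had the highest correlation (0.68), followed by BDH2 and OXCT1 (0.45) and BDH1 and BDH2 (0.35), and AACS lay between -0.010 and 0.16 with the others.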

How the data were processed

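The authors prepared stranded mRNA libraries with molecular identifiers of 8 bases, sequenced them on an Illumina NovaSeq, trimmed reads with Trimmomatic 0.36, mapped them with STAR 2.5.3 to GRCh38 and counted reads over exons with featureCounts (Subread 1.5.1, per the submitters' processing notes). The deposited counts are not normalized. The deposited RPKM values were made by the authors from these counts, and they equalled counts per total and exon length to within a relative difference of 6.4e-07. Annotation release, counting by strand, reads with several map positions and the use of the identifiers are not given in the sources used here. A count of 2 occurred 56468 times in the table and a count of 1 occurred 15996 times. A count of 4 occurred 22842 times and a count of 3 occurred 8397 times. Whether mates of a read pair were counted separately was not tested, so the number of fragments behind a read count is not known. Replicates of a group differed by more than counting error, with a chi-square of 13.0 to 194 times its degrees of freedom over 18 pairs.

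The main test on counts was that of edgeR 4.0.16 under R 4.3.3 (TMM, filterByExpr by group, quasi-likelihood test, 1 model of 6 groups), with Benjamini-Hochberg adjustment within each contrast. The test was checked on simulated counts with a fixed spread and no effect shared by replicate number. That check cannot speak to calls that change with the block. SE were derived from the log2 fold change and the test statistic of the same fit, and 95% intervals from these SE. They therefore restate the unadjusted p values. Alternatives used DESeq2 1.42.0, limma 3.58.1, other filters and scalings, left-out libraries and the replicate number within a cell line as a block. Deviations from group means correlated across genes (not independent replicates) in all 9 same-number pairs in UM-UC-3 (r from 0.115 to 0.576) and all 9 in T24 (0.356 to 0.686). Pairs with other numbers had r up to 0.269 in UM-UC-3, within the range of its same-number pairs, and up to 0.210 in T24. Median r was 0.433 for same and -0.110 for other numbers in UM-UC-3, and 0.524 and -0.404 in T24. Between the lines, r of pairs with other numbers reached 0.333. The labels do not say what equal numbers share, so pairing libraries within a line by number is an assumption of the blocked fits. The members, the list of 22 pathway genes and the cell markers were chosen with earlier results of these data known. Contrasts of 1 siRNA over both lines or within 1 line, and their differences between lines, were chosen after seeing the data. Named besides the members were the listed enzymes, listed genes called in a contrast, overlapping or related genes, and the 3 most and 1 least correlated genes. Some genes that these rules would name are not reported here.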

Additional observations from a re-analysis of the deposited data

Results flagged for a closer look

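AACS with siACAT1-2 was flagged because its pairs lay on opposite sides of siNC in the cell lines. Against siNC of the same replicate number its median log2 difference was 0.15 in UM-UC-3 (higher in 3 of 3 pairs, 0.049 to 0.50). In T24 it was -0.10 (lower in 3 of 3 pairs, -0.14 to -0.035). How many of all genes meet this rule was not counted. Neither change against siNC was called by edgeR (unadjusted p = 0.123 in UM-UC-3 and 0.526 in T24). The test of the difference between the lines (UM-UC-3 minus T24) gave 0.34 (SE 0.21, edgeR, unadjusted p = 0.126) without the replicate block. With the block it gave 0.33 (unadjusted p = 0.0578, adjusted p = 0.631), so the difference was not called.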

How the results depend on the processing

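Outside the fits that left out 1 library, 339 of 344 planned results for the 4 enzymes kept direction and call, 4 gained a call (all with the replicate block), 1 lost it and none changed direction. With the block, and with the block and RLE size factors (added after seeing the data), the enzymes called became 1 in UM-UC-3 with siACAT1-2 (BDH2), 1 in T24 with siACAT1-1 (BDH1) and 3 between the siRNAs. Without replicate 3 of the UM-UC-3 groups, 0 were called between the siRNAs, by edgeR (BDH2 0.86, adjusted p = 0.0722). The log2 difference of BDH2 between the siRNAs was lowest, 0.43, on the scale of log2(RPKM + 1), which shrinks low levels. Of the other pathway genes, 0 were called over the 4 comparisons with siNC. It was 1 with DESeq2, with no filter, with limma on log2(RPKM + 1) or log2(RPKM + 0.1) and without T24 replicate 2. It was 5 with the block, all with siACAT1-1 in T24, and 4 with the block and RLE. The block also raised the share of all genes called, from 0.00993% and 0.0546% to 3.06% and 1.36% in UM-UC-3. In T24 it rose from 0.124% and 0.268% to 13.9% and 8.48%, for siACAT1-1 and siACAT1-2 in turn.

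Leaving out 1 library gave, with the block included, 0 to 3 called between the siRNAs, 0 to 1 in UM-UC-3 with siACAT1-2, in both T24 comparisons and in the mean knockdown, 2 to 3 between the siNC groups, and 0 to 5 pathway genes. Log2 values that crossed 0 ranged from -0.17 to 0.021 (OXCT1, UM-UC-3 siACAT1-1), -0.19 to 0.15 (BDH1, UM-UC-3 siACAT1-2), -0.36 to 0.028 (OXCT1, T24 siACAT1-1), -0.40 to 0.11 (BDH1, T24 siACAT1-2) and -0.28 to 0.15 (BDH1, siNC of the lines). For the mean knockdown effect in UM-UC-3 less that in T24 they were -0.11 to 0.32 (BDH1), -0.58 to 0.12 (BDH2) and -0.16 to 0.15 (OXCT1). None of these 8 was called. The cause of these changes was not tested. BDH2 in UM-UC-3 had 38 to 142 reads a library, which limits its precision.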
